A study of Mus musculus with 10 samples.

Results

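The genes described are 10 markers of endothelial identity in kidney glomeruli of the mouse. They are Ehd3, Emcn and Gata5, used as markers of the glomerular capillary, Pecam1, Cdh5, Eng and Cd34, which mark endothelium in general, and Plvap, Esm1 and Vwf, which mark particular vessel types or states. They were taken by name from a table of 22053 genes, and all 10 were found in it through their Ensembl identifiers. RNA-seq covered 5 libraries from mice with the p.G799R missense change in Col4a3 and 5 libraries from Col4a3 wild-type mice, in both cases from glomeruli. Col4a3 encodes a chain of the type IV collagen network in the glomerular basement membrane, on which these endothelial cells lie. Labels used here state no zygosity, strain, age, sex or treatment of these mice, and not how glomeruli were isolated. Separate mice are not stated for the libraries of a group, so p-values measure the spread between libraries, which may be technical.

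The glomerular endothelium is a flat, fenestrated cell layer that forms the first part of the filtration barrier. Its pores mostly lack diaphragms in the adult, whereas the peritubular capillaries that surround the tubules carry diaphragms built of PLVAP. Endothelial identity is maintained by transcription factors of the ETS, SOX, KLF and GATA families and by VEGF that podocytes supply from the other side of the basement membrane.

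The starts of the genes set against each other below are shown first, since binding motifs of those factor families could be read there. RefSeq promoter sequences on GRCm38.p6 were available for 6 of the 10 genes, and the 250 bases before the RefSeq start were searched on both strands. For Ehd3, GENCODE M21 also lists a transcript that begins further upstream, so that window lies inside its gene model there. For the ETS family the letters searched were AGGAAG, and besides these the variant form CGGAAG. For the GATA family they were AGATAA, and besides these the variant form TGATAA. For the SOX family the search was for AACAAT. For the KLF family it was for CACACCC. Capitals mark a match. Emcn is shown because it holds matches to both ETS and SOX motifs, Eng because it holds ETS matches, and Ehd3 and Esm1 because they were the 2 genes not called higher.
Emcn (chr3:137340828-137341077, plus strand): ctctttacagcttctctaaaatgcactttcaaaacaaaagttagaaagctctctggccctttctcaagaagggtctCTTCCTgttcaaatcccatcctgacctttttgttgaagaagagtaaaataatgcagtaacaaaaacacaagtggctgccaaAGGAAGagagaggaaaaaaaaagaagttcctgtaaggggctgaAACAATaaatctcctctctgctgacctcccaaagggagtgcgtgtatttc
Eng (chr2:32646345-32646594, plus strand): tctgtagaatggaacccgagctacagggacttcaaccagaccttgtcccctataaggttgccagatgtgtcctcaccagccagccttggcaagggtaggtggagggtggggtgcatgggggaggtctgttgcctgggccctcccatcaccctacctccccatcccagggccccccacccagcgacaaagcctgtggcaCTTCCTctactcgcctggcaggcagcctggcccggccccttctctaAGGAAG
Ehd3 (chr17:73804591-73804840, plus strand): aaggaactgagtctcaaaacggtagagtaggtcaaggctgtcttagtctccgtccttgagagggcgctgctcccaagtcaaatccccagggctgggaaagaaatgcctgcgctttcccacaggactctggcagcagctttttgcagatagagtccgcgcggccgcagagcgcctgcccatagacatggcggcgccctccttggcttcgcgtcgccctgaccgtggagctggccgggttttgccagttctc
Esm1 (chr13:113209409-113209658, plus strand): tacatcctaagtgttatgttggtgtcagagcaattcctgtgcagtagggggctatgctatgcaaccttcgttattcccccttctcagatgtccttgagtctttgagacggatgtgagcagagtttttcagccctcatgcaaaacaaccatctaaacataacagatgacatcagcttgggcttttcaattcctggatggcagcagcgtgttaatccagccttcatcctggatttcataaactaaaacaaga
Emcn had 2 ETS matches and 1 SOX match, Eng had 2 ETS matches and Cd34 had 1. Ehd3, Esm1 and Gata5 had no match to these letters in this window. Of 32851 promoters in the same table, 39.2% held an ETS match, 16.6% a GATA match, 9.42% a SOX match and 6.93% a KLF match. A match is a description only.

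As deposited, 8 of the 10 genes were higher in G799R than in wild-type glomeruli, none was called lower (0 also at an unadjusted p under 0.05), and Ehd3 and Esm1 were not called. By the ratio of means, Plvap and Vwf rose 2.25-fold and 2.24-fold. Pecam1, Cdh5, Eng and Cd34 rose 1.79-fold, 1.81-fold, 1.55-fold and 1.70-fold. Calls were made by limma on log2(FPKM + 1), at an adjusted p under 0.05, over the 13117 genes whose mean reached 0.5 FPKM, and 40.5% of all those genes were called higher and 19.3% lower. FPKM is a fragment count scaled for transcript length and library total, and each fold is a ratio of mean FPKM in G799R over wild type. The median log2 difference of the 10 genes was 0.66, and that of all tested genes was 0.17. In such bulk libraries, more endothelial cells and more RNA per endothelial cell cannot be told apart.

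These rises came with lower tubule markers, higher podocyte markers and a mixed picture in mesangial and smooth muscle markers. A tubule score, the mean log2(FPKM + 1) of 18 markers of proximal and distal tubule, was 4.50 ± 0.47 in G799R and 7.06 ± 0.25 in wild type (SD, n = 5 each). All 18 markers were called lower. Summed FPKM of 9 proximal tubule markers was 602 to 1919 in G799R and 4429 to 8988 in wild type. That of 10 podocyte markers was 5342 to 7153 in G799R and 3080 to 3730 in wild type, with all 10 called higher. Of 10 mesangial and smooth muscle markers 6 were called higher, among them Pdgfrb (1.17) and Serpine2 (1.22), and 4 were not called. These were the contractile genes Acta2, Myh11 and Tagln, with log2 differences of 0.10, 0.10 and 0.14, and the pericyte gene Rgs5 with −0.48 (limma adjusted p = 0.0558). The 10 endothelial genes made up 0.589% to 0.656% of all FPKM in G799R and 0.299% to 0.582% in wild type. FPKM is relative to each library's total, and the part of the tubule difference in these rises was not tested. FPKM sums per library ran from 320720 to 340875, and absolute depth is unknown.

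**Figure D1:**
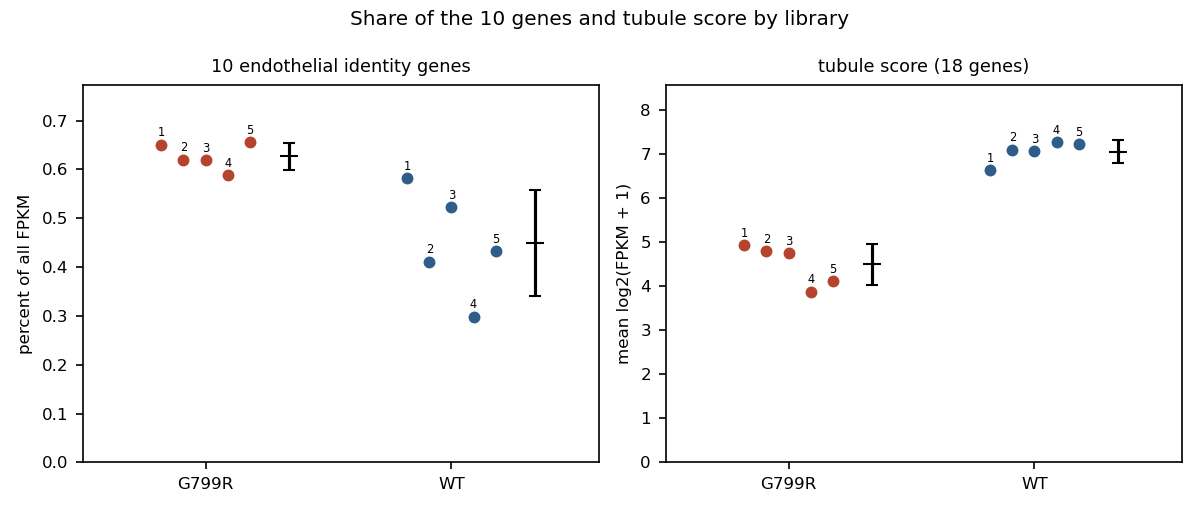
Percent of all FPKM taken by the 10 endothelial genes (left) and the tubule score, a mean of log2(FPKM + 1) over 18 genes (right), in G799R and WT (wild type). Points are libraries with their replicate numbers, bars are means with SD, and in neither panel do the groups overlap.

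Ehd3, an ATPase of endocytic recycling that in the mouse kidney is found in glomerular endothelium, differed little between the groups. It stood at 498, 346, 346, 358 and 464 FPKM in G799R libraries 1 to 5, and at 463, 332, 411, 241 and 348 FPKM in wild-type libraries 1 to 5. The groups overlapped over most of their range, and only G799R libraries 1 and 5 lay above all wild-type libraries. The log2 difference was 0.18 ± 0.17 (SE), with a 95% interval of −0.20 to 0.56 and a limma adjusted p of 0.38, so a rise of the size seen for Emcn lies inside the interval. Single libraries moved it between 0.05 (without wild-type library 4) and 0.28 (without wild-type library 1), and it was not called in any of these fits.

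Emcn, the sialomucin endomucin of capillary and venous endothelium, rose. Its FPKM was 543, 553, 525, 527 and 614 in G799R libraries and 542, 363, 457, 304 and 356 in wild-type libraries. Wild-type library 1 alone reached the G799R range. Emcn differed by 0.48 ± 0.14 on the log2 scale (SE; limma adjusted p = 0.0129). Under median-of-ratios scaling it was 0.30 (adjusted p = 0.0504) and under quantile normalisation 0.39 (adjusted p = 0.0647), and it was then not called.

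Gata5, a transcription factor needed by glomerular endothelium in the mouse, rose by a log2 difference of 0.52 ± 0.17 (SE; limma adjusted p = 0.0209). Its levels were 40.9, 33.2, 30.5, 31.7 and 42.2 FPKM in G799R libraries and 34.2, 21.3, 27.0, 16.5 and 26.7 FPKM in wild-type libraries. Again wild-type library 1 lay within the G799R range while the other wild-type libraries lay below it. Its call was lost without G799R library 1 or 5 or wild-type library 2 (log2 differences 0.47, 0.46 and 0.47; adjusted p up to 0.0511), and also under median-of-ratios scaling (0.35, adjusted p = 0.0651).

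Of the general markers, Cdh5 encodes VE-cadherin, the adhesion protein of endothelial junctions, and is the most restricted to endothelium. Its level was 133, 143, 157, 129 and 136 FPKM in G799R libraries and at 107, 67.2, 86.3, 49.7 and 75.9 FPKM in wild-type libraries. Every G799R library lay above every wild-type library, as was the case for 26.1% of all tested genes. Cdh5 rose by a log2 difference of 0.89 ± 0.17 (SE; limma adjusted p = 0.00087).

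Pecam1, the junction protein CD31, which leukocytes and platelets also carry, had 218, 221, 225, 192 and 215 FPKM in G799R libraries and 168, 100.1, 131, 82.1 and 119 FPKM in wild-type libraries. The groups did not overlap, and the log2 difference was 0.87 ± 0.16 (SE; limma adjusted p = 0.00073). Summed FPKM of 9 leukocyte markers was 41.1 to 151 in G799R and 31.7 to 63.0 in wild type, with 3 called higher and 1 lower, and none of 4 tested platelet markers was called; their part in the Pecam1 level was not tested.

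Eng, the TGF-beta co-receptor endoglin, averaged 521 ± 45.2 FPKM in G799R and 335 ± 90.6 FPKM in wild type (SD, n = 5 each), between 456 and 577 in G799R and between 197 and 417 in wild type. Cd34, a sialomucin also found on haematopoietic progenitors and some fibroblasts, averaged 201 ± 15.1 FPKM in G799R and 118 ± 30.9 FPKM in wild type, between 186 and 219 in G799R and between 77.2 and 161 in wild type. Neither gene had overlapping groups. Their log2 differences were 0.68 ± 0.18 and 0.80 ± 0.16 (SE; limma adjusted p = 0.0077 and 0.0013). Eng overlaps Fpgs, a gene on the opposite strand at 15.3 FPKM, and the sources used here do not say whether reads were counted by strand.

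Plvap, which builds the diaphragms of fenestrae and caveolae, was at 26.8, 42.7, 29.5, 38.2 and 33.0 FPKM in G799R libraries. In wild-type libraries it was at 15.8, 15.1, 19.5, 12.5 and 12.8 FPKM. The gap between the groups was wider than the wild-type range. The log2 difference was 1.12 ± 0.14 (SE), the limma adjusted p was 6.9e-05, and 2.33% of all tested genes had a larger difference. Plvap overlaps Gtpbp3 on the opposite strand, which stood at 6.07 FPKM.

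Esm1 encodes endocan, a secreted proteoglycan of VEGF-stimulated endothelium, and was the 1 gene of the 10 with a negative difference. It had 5.60, 4.16, 1.97, 2.86 and 4.91 FPKM in G799R libraries and 8.34, 4.84, 6.24, 3.57 and 4.95 FPKM in wild-type libraries. G799R libraries 3 and 4 lay below all wild-type libraries, and the other 3 lay among them. The log2 difference of −0.44 ± 0.24 (SE; 95% interval −0.96 to 0.08) was not called (limma adjusted p = 0.13). Without G799R library 3 it was −0.28, and single libraries moved it no lower than −0.57. Under median-of-ratios scaling it was −0.59 and called lower (adjusted p = 0.0413).

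Vwf, the clotting protein of larger vessels and platelets, was low in both groups. Its FPKM was 2.49, 1.51, 1.04, 1.80 and 1.91 in G799R libraries and 1.66, 0.52, 0.70, 0.33 and 0.70 in wild-type libraries. Wild-type library 1 stood apart from the other 4 and inside the G799R range. The log2 difference was 0.65 ± 0.19 (SE; limma adjusted p = 0.0134), on a scale that understates changes of genes this low; with a pseudocount of 0.1 it was just above the 1.17 of Plvap (adjusted p = 0.0133 for Vwf).

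**Figure D2:**
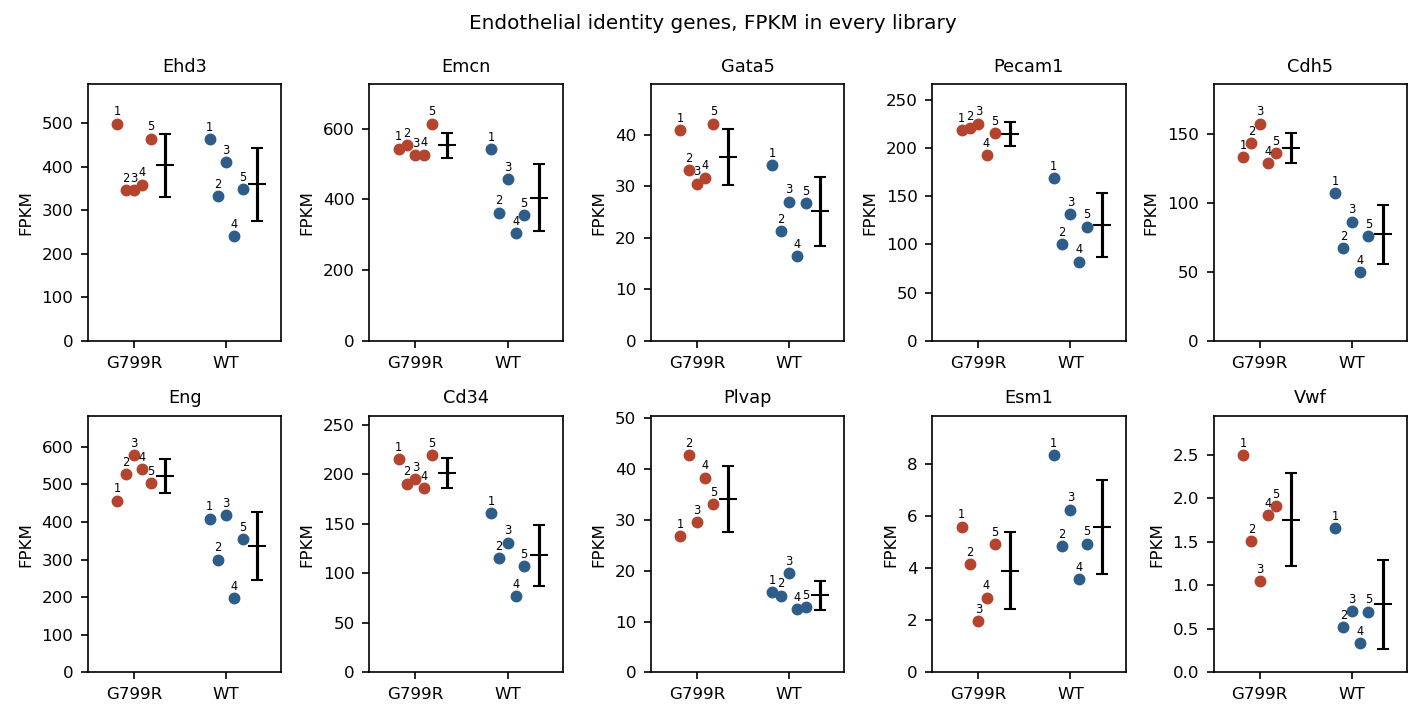
FPKM of each of the 10 genes in every library of G799R and WT (wild type), with replicate numbers beside the points and means with SD as bars. The groups are apart for Pecam1, Cdh5, Eng, Cd34 and Plvap, and overlap for Ehd3, Emcn, Gata5, Esm1 and Vwf.

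Since FPKM is scaled by transcript length, the levels of the genes can be ordered. In G799R the order by mean was Emcn, Eng, Ehd3, Pecam1, Cd34, Cdh5, Gata5, Plvap, Esm1 and Vwf. In wild type Ehd3 came before Eng, and the other places were the same. Emcn was above Eng in 3 of 5 G799R libraries, and Ehd3 above Eng in 3 of 5 wild-type libraries, so these neighbours did not differ beyond their spread. Pecam1 exceeded Cd34 in 4 of 5 G799R libraries and in 3 of 5 wild-type libraries. Gata5 exceeded Plvap in 3 of 5 G799R libraries and in all 5 wild-type libraries.

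Setting each gene against Cdh5 within its own library compares it with a general endothelial gene. How much Cdh5 each endothelial cell holds was not measured, so the ratio need not remove the library's endothelial share. Ehd3 and Esm1 were lower relative to Cdh5 in G799R, Emcn by a smaller amount, and Pecam1 followed Cdh5 closely. Cdh5 itself rose more than 23 of 29 other general endothelial genes, whose median relative to Cdh5 was −0.25. Of those 29, 11 were called lower and 1 higher, beside 78.5% and 1.34% of all genes. Among the 11 were Gpihbp1 (−0.77), itself a gene of capillaries, Calcrl (−0.66) and Ptprb (−0.62). A lower ratio to Cdh5 was thus also seen outside the glomerular capillary markers. The Ehd3 to Cdh5 ratio of FPKM was 3.74, 2.41, 2.197, 2.78 and 3.41 in G799R libraries. In wild-type libraries it was 4.33, 4.94, 4.76, 4.84 and 4.58. The wild-type values lay within a coefficient of variation of 5.17%, and all G799R values were below them. On the log2 scale the ratio differed by −0.71 ± 0.19 (SE; limma adjusted p = 0.0026).

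The Esm1 to Cdh5 ratio averaged 0.0284 ± 0.0116 in G799R and 0.0719 ± 0.0046 in wild type (SD, n = 5 each), 2.53-fold lower in G799R. It ran from 0.0125 in G799R library 3 to 0.0420 in G799R library 1, and from 0.0651 to 0.0780 in wild type. The log2 difference was −1.33 ± 0.23 (SE; limma adjusted p = 3.4e-05). For Emcn the ratio was 3.34 to 4.51 in G799R and 4.69 to 6.12 in wild type, and for Gata5 it was 0.194 to 0.310 in G799R and 0.313 to 0.352 in wild type. The groups did not overlap for either gene, but with limma Emcn was called (−0.41 ± 0.18 SE, adjusted p = 0.0434) and Gata5 was not (−0.37 ± 0.18 SE, adjusted p = 0.0600). The Emcn call was lost in 8 of 10 fits that each left out 1 library (log2 differences −0.46 to −0.35, adjusted p 0.0289 to 0.106 over all 10); it held without wild-type library 1 and without wild-type library 4.

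Relative to Cdh5, 78.5% of the 13116 other tested genes were called lower and 1.34% higher, and 50% had groups apart in the lower and 0.884% in the higher direction, with a median log2 difference of −0.72. Of the 9 genes here 3 were called lower, a smaller share than of all genes, 4 had lower groups apart, a share near that of all genes, and 0 were called higher (0 also at an unadjusted p under 0.05). The comparison is of interest only within endothelium. Eng (−0.21), Cd34 (−0.09), Vwf (−0.24) and Plvap (0.23) were not called relative to Cdh5, with 95% intervals of −0.58 to 0.16, −0.45 to 0.27, −0.72 to 0.23 and −0.18 to 0.64. The sign for Vwf depends on the pseudocount, since log2(FPKM + 1) compresses genes this low. As a plain ratio of FPKM, Vwf to Cdh5 averaged 0.0128 in G799R and 0.00945 in wild type, 1.35-fold higher, with overlapping groups. The Pecam1 to Cdh5 ratio was 1.54 ± 0.08 in G799R and 1.56 ± 0.06 in wild type (SD, n = 5 each), and its log2 difference of −0.02 had an interval of −0.37 to 0.33. Limma borrows the spread of all genes relative to Cdh5, so this interval is wide: the SE was 0.17 by limma and 0.04 from the Pecam1 ratio itself. Limma's SE was also the larger for Eng (0.18 against 0.08), Emcn (0.18 against 0.09), Cd34 (0.17 against 0.09) and Gata5 (0.18 against 0.13). For Ehd3 it was 0.19 against 0.15, for Vwf 0.23 against 0.19 and for Plvap 0.20 in both. For Esm1 it was the smaller, 0.23 against 0.25. All calls used limma's SE. With the 29 other general endothelial genes as the reference, chosen after the values were seen, Plvap was called higher (0.43, limma adjusted p = 0.0396), Ehd3 and Esm1 were called lower, and Emcn was not called (−0.21, adjusted p = 0.15).

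**Figure D3:**
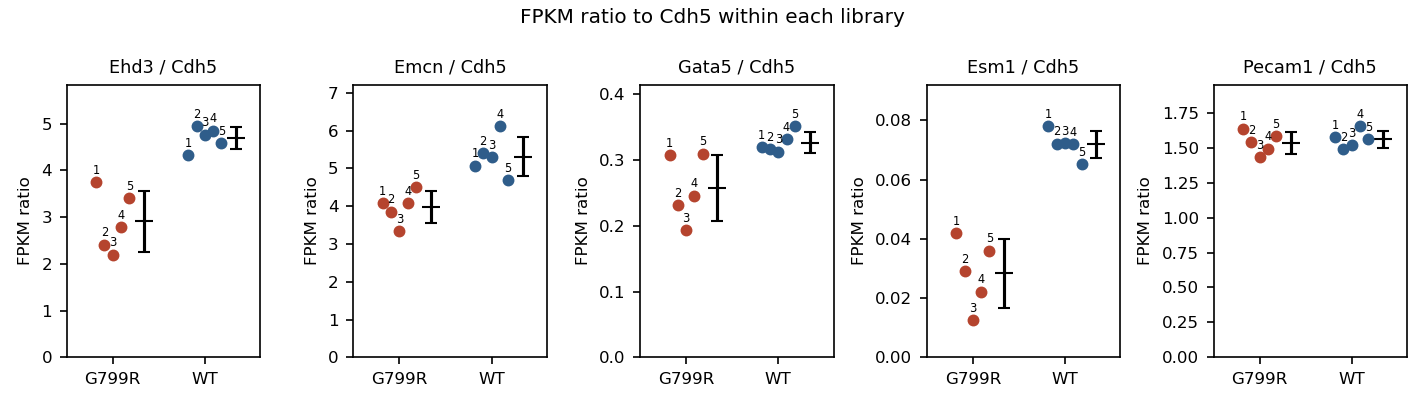
Ratio of FPKM to that of Cdh5 within each library for Ehd3, Emcn, Gata5, Esm1 and Pecam1, in G799R and WT (wild type), with replicate numbers and bars of mean and SD. The first 4 ratios are lower in all G799R libraries than in any WT library, and the Pecam1 ratio overlaps.

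Set against Ehd3 instead, Plvap, Pecam1, Cdh5 and Cd34 were higher and Esm1 was lower in G799R. The Plvap to Ehd3 ratio of FPKM was 0.0538, 0.123, 0.0854, 0.107 and 0.0712 in G799R libraries and 0.0342, 0.0453, 0.0474, 0.0519 and 0.0367 in wild-type libraries. Its groups did not overlap, and the log2 difference was 0.94 ± 0.22 (SE; limma adjusted p = 0.0023). Cdh5 relative to Ehd3 differed by 0.71 ± 0.19, Pecam1 by 0.69 ± 0.18 and Cd34 by 0.62 ± 0.17 (SE; limma adjusted p = 0.0068, 0.0073 and 0.0110). The Cdh5 value is the earlier Ehd3 to Cdh5 comparison with its sign turned, not a further result. Esm1 was lower by −0.63 ± 0.20 (SE; limma adjusted p = 0.0256). Both capillary markers can be compared directly here: Emcn relative to Ehd3 was 0.30 ± 0.19 (SE; 95% interval −0.10 to 0.69) and was not called (limma adjusted p = 0.32). Of all genes, 6.78% were called higher and 15.1% lower relative to Ehd3, against 4 and 1 of the 9 genes here. Ratios to Ehd3 had groups apart for Plvap, Pecam1, Cdh5, Cd34 and Gata5 in the higher direction and for Esm1 in the lower, compared with 6.03% and 11.3% of all genes. Without G799R libraries 3 and 4 together, Plvap was called higher relative to Ehd3, whereas Pecam1 (0.60, adjusted p = 0.0946), Cdh5 (0.57, adjusted p = 0.11), Cd34 (0.55, adjusted p = 0.13) and Esm1 (−0.42, adjusted p = 0.33) were not called. The Esm1 call was also lost when any 1 of G799R libraries 3 and 4 and wild-type libraries 2 and 5 was left out (adjusted p 0.0531 to 0.11).

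When the mean of the 10 podocyte markers was set equal in every library, Plvap was called higher, Ehd3 and Esm1 were lower, and the other 7 were not called. Plvap differed by 0.36 ± 0.13 (SE; limma adjusted p = 0.0244), Ehd3 by −0.58 ± 0.18 (adjusted p = 0.0092) and Esm1 by −1.21 ± 0.25 (adjusted p = 0.00054). Cdh5 and Pecam1 stood at 0.13 and 0.11, with 95% intervals of −0.17 to 0.43 and −0.20 to 0.42. Under this scaling 2.04% of genes were called higher and 78.4% lower. Higher genes made up 2.54% of all calls, compared with 67.7% as deposited and 47.8% under median-of-ratios scaling. The median of all genes was −0.59 under podocyte scaling and 0.02 under median-of-ratios scaling.

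**Figure D4:**
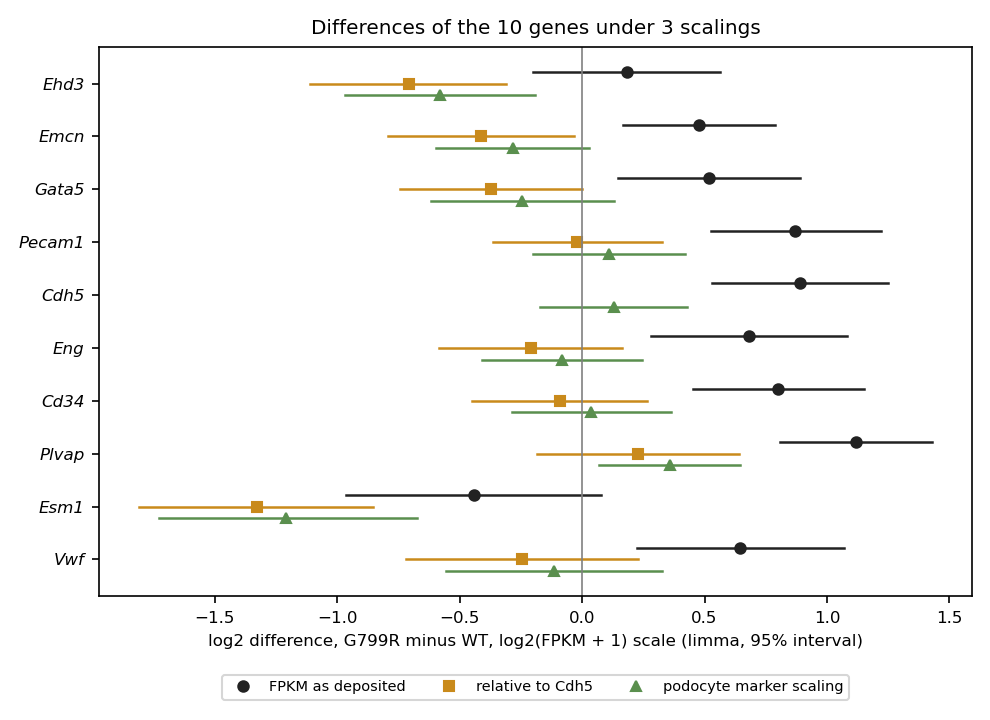
Log2 differences of the 10 genes, G799R minus WT (wild type), with 95% limma intervals, for FPKM as deposited (circles), relative to Cdh5 (squares; Cdh5 itself has none) and with podocyte markers set equal (triangles). Ehd3 and Esm1 lie furthest to the left under the last 2, at −0.71 and −1.33 relative to Cdh5.

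Most other genes of glomerular capillary endothelium rose. Of 9 such genes, 8 rose and 1 fell as deposited, with a median log2 difference of 0.77, where 40.5% of all genes were called higher. With podocyte markers set equal, 1 of the 9 was called higher (Pi16), 1 lower (Lpl) and 7 were not called, with a median of 0.01. Under that scaling 2.04% of all genes were called higher and 78.4% lower, with a median of −0.59. Pi16 rose 2.16-fold, Plat, which encodes the tissue plasminogen activator, 1.85-fold, Tspan7, a tetraspanin, 1.68-fold, and Mapt, the gene of the microtubule protein tau, 1.49-fold (limma adjusted p 0.00013 to 0.0012). Lpl, the lipase that clears triglycerides at the capillary wall and is also made by other cell types, was lower by −1.04 ± 0.26 (SE; limma adjusted p = 0.0049). For the genes of this and the other endothelial lists, which cells made the RNA was not tested. Relative to Cdh5, Lpl was the only one of these 9 called lower and none was called higher. Ehd3 had a lower difference than 8 of these 9 genes and than 28 of the 29 other general endothelial genes; this rank was not tested.

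Of the 29 other general endothelial genes 22 rose, 0 fell and 7 were not called as deposited, with a median of 0.64, beside the same 40.5% of all genes. With podocyte markers set equal the balance turned, with 1 called higher (Clec14a), 6 lower and a median of −0.12. Clec14a, a C-type lectin of endothelial cells that takes part in vessel sprouting, stood apart with 51.6, 52.8, 54.5, 58.2 and 51.9 FPKM in G799R libraries and 17.6, 8.94, 13.9, 7.50 and 10.4 FPKM in wild-type libraries. It was 4.61-fold higher, with a log2 difference of 2.17 ± 0.18 as deposited and 1.28 ± 0.17 relative to Cdh5 (SE; limma adjusted p = 3.7e-06 and 9.8e-07). It was the 1 gene of the 29 called higher relative to Cdh5, while 11 were called lower, beside 1.34% and 78.5% of all genes. Cldn5, a tight junction claudin, rose 1.57-fold, Ecscr 1.75-fold and Acvrl1, the receptor ALK1, 1.76-fold. The receptor genes Tek, Tie1 and Flt1, chosen after their values were seen along with Kdr, rose by 1.05, 0.56 and 0.62 on the log2 scale (limma adjusted p = 0.00036, 0.0038 and 0.0048). Kdr, the main VEGF receptor, was not called (0.48, limma adjusted p = 0.0812). Gpihbp1, which anchors lipoprotein lipase on capillaries, had the smallest difference, 0.12 (limma adjusted p = 0.69). Its sign turned without wild-type library 4 (−0.09) or G799R library 5 (−0.05), and it was 0.22 without wild-type library 5.

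Arterial genes were mostly higher as deposited, and few venous and lymphatic genes passed the filter. Of 9 arterial genes 7 rose, beside 40.5% of all genes, among them the connexin genes Gja4 and Gja5, both 1.80-fold, Fbln5, a protein of elastic fibres, 2.09-fold, and the kinase gene Bmx (limma adjusted p 0.00045 to 0.0013). Hey1, a Notch target, differed by 0.24 and was not called; single libraries moved it between 0.11 (without G799R library 5) and 0.40 (without wild-type library 1). With podocyte markers set equal 0 of the 9 were called in either direction by limma (1, Hey1, at an unadjusted p under 0.05), with a median of −0.11. All genes then had 2.04% called higher and 78.4% lower. Of 5 venous and peritubular genes 3 were tested. Nr2f2, the venous transcription factor COUP-TFII, and the receptor gene Ephb4 rose, by 0.55 and 0.49. Cd36, a fatty acid transporter that other kidney cells also use, fell by 0.82 (limma adjusted p = 0.0254), and that call was lost without G799R library 2 or 4 or wild-type library 2 or 4 (adjusted p 0.0519 to 0.0608). Of 6 lymphatic genes 3 passed the filter: Lyve1 and Flt4 rose, and Prox1, the defining factor of lymphatic endothelium, had 0.121 to 0.536 FPKM in G799R and 0.502 to 1.28 FPKM in wild type and was not called (−0.34, limma adjusted p = 0.0522). Without G799R library 5 or wild-type library 1 Prox1 was called lower (−0.39 in both, adjusted p = 0.0474 and 0.0380), as it was with podocyte markers set equal (−1.10). Lyve1, which some macrophages also express, had 5.44 FPKM in G799R library 5, 0.633 to 2.33 FPKM in the other G799R libraries and 0.226 to 0.909 FPKM in wild type. Flt4 was not called without G799R library 1 or 5 (limma adjusted p = 0.0550 and 0.0548).

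Of 6 genes of activated endothelium 5 were tested and 2 rose, a share near the 40.5% of all genes. With podocyte markers set equal, 0 were called higher by limma (0 also at an unadjusted p under 0.05) and 1, Apln, was called lower (−0.76). The shares of all genes under this scaling were 2.04% higher and 78.4% lower. Icam1, a leukocyte adhesion molecule, was at 54.1 FPKM in G799R library 2 and between 15.7 and 21.9 in the other G799R libraries, and between 6.94 and 11.6 FPKM in wild type (limma adjusted p = 0.0032). Angpt2, a ligand of the receptor encoded by Tek, was 1.65-fold higher (limma adjusted p = 0.0012). Sele, the selectin of inflamed endothelium, had 31.5 FPKM in G799R library 2, 3.33 to 6.12 in the other G799R libraries and 1.65 to 4.31 in wild type, and was not called (limma adjusted p = 0.0774); its log2 difference was 1.09, and 0.56 without library 2. Vcam1 (0.67, adjusted p = 0.0593) and Apln (0.00, adjusted p = 0.99) were not called by limma either, though Vcam1 was called higher without G799R library 5 (0.79) or wild-type library 1 (0.87), with adjusted p = 0.0434 and 0.0138. Library 2, high in Icam1 and Sele, also had the highest Plvap of the G799R group.

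**Figure D5:**
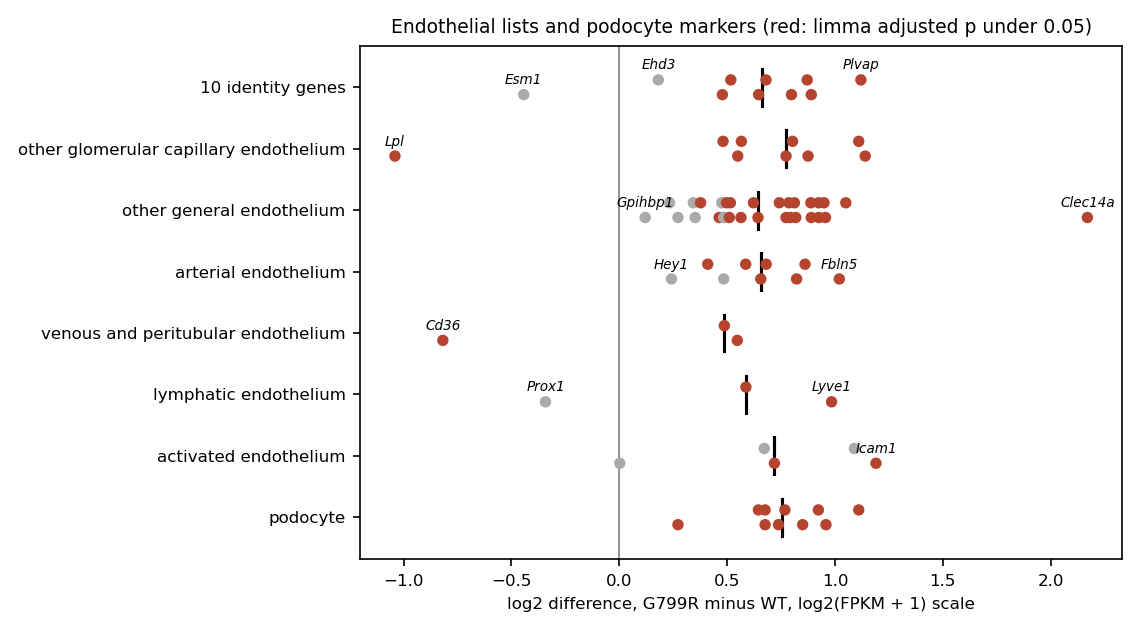
Log2 difference, G799R minus wild type, of each tested gene of the 10 identity genes, 6 other endothelial lists and the podocyte markers, with list medians as black lines. Red points have a limma adjusted p under 0.05. Clec14a at 2.17 and Lpl at −1.04 are the extremes.

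Within wild type the 10 genes moved together between libraries. Wild-type library 4 was the lowest of its group for all 10, and wild-type library 1 the highest for 8, the other 2 being Plvap and Eng, which were highest in library 3. Library 4 also had the highest tubule score (7.28) and library 1 the lowest (6.64). In G799R no library held such a place. There library 4 had the lowest tubule score (3.881) and was the highest for 0 of the 10 genes and the lowest for 3. G799R library 1 had the highest score of its group (4.945) and was the highest for 3 genes and the lowest for 2. The coefficients of variation of Pecam1, Cdh5, Eng and Cd34 were 5.96% to 8.67% in G799R and 26.1% to 27.7% in wild type; the difference in spread was not tested. Esm1 varied by 38.0% in G799R and 32.3% in wild type, and Ehd3 by 18.2% in G799R and 23.5% in wild type.

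Deviations from the group means over the 10 libraries, which share depth and tubule content, describe how alike the genes were. Pecam1 and Cdh5 had a Pearson r of 0.98, and Ehd3 and Gata5 one of 0.95. The Gata5 to Ehd3 ratio of FPKM varied by only 5.59% in G799R and 7.72% in wild type, and it was 0.0891 ± 0.0050 in G799R and 0.0698 ± 0.0054 in wild type (SD, n = 5 each; log2 difference 0.34, limma adjusted p = 0.17). Plvap was least like the rest, with r between 0.09 and 0.53. Among 9336 other genes whose mean reached 5 FPKM, those most like Cdh5 were Pecam1, Ptprm, Slc39a6, Tspan7 and Tpm3 (r 0.964 to 0.976). Those most like Ehd3 were Rnf19a, Rhoq, Sp1, Gba2 and Il6st (r 0.965 to 0.967), and those most like Plvap were Parp6, Chrac1, Pigb, Dmwd and Ppfibp1 (r 0.903 to 0.937).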

How the data were processed

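RNA was extracted from glomeruli with TRIzol, and mRNA libraries were made with a NEBNext Ultra kit, per the labels' protocols. The authors deposited FPKM values in 1 table, with 1 column for each of the 10 libraries. The submitters' processing notes name RSEM, StringTie 1.3.1, HISAT2, Bowtie2 2.2.8 and fastp 0.18.0 without roles; the genome build is not given in the sources used here. Columns were joined to libraries by the label that states the column name. Symbols were found for 21963 of 22053 identifiers in a table of Ensembl gene names, and overlapping genes were looked up in GENCODE M21.

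FPKM was tested as log2(FPKM + 1) with limma 3.58.1 (R 4.3.3; trend, Benjamini-Hochberg) over every gene whose mean reached 0.5 FPKM; all 10 genes passed. Relative fits subtract the log2 value of Cdh5 or Ehd3 in the same library from every gene. Low values move in steps, from which depth relative to wild-type library 1 was estimated at 0.861 to 1.03 in G799R and 0.992 to 1.19 in wild type. The 10 genes and the 13 other gene lists were chosen with earlier results of these data known. Beside the 10 genes, the 4 smallest p-values and the lowest difference of each endothelial list were named; Tek, Tie1, Flt1 and Kdr were added for their kinship and chosen after their values were seen. Alternatives were pseudocounts of 0.1 and 0.5, no filter or 2 FPKM, other limma settings, scalings, a replicate block, a tubule covariate, other reference genes and leaving out libraries, singly or G799R libraries 3 and 4 together, which earlier results of these data set apart.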

Additional observations from a re-analysis of the deposited data

Results flagged for a closer look

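In wild type, Vwf in library 1 stood far above the other 4 libraries, at 1.66 FPKM against 0.33 to 0.70 FPKM. Its ratio to Cdh5 in that library was also far from the others, at 0.0155 against 0.0067 to 0.0092. These 2 came from 38 checks of a gene or ratio in a group of 5, and chance gives about 1 in 20. Summed FPKM of 6 platelet markers was 9.69 in the same library and 2.63 to 6.46 in the other wild-type libraries; the part of platelets in the Vwf value was not tested.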

How the results depend on the processing

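As deposited, 8 of the 10 genes were called higher and 0 lower, and leaving out each library gave 7 to 8 and 0. The 3 scalings gave 6 higher and 1 lower (median-of-ratios, where Esm1 was called), 7 and 0 (quantile), and 1 and 2 (podocyte markers). Adding the tubule score to the model left 0 of the 10, and 0 of all genes, called by limma (786 of all genes at an unadjusted p under 0.05); the groups do not overlap in that score. Signs turned under podocyte scaling for Ehd3 (−0.58), Emcn (−0.28), Gata5 (−0.25), Vwf (−0.12) and Eng (−0.0815). For Vwf, low in both groups, log2(FPKM + 1) understates the rise, whereas the difference in podocyte markers is subtracted in full. The sign of Vwf under this scaling therefore cannot be read. With the covariate, signs turned for Ehd3 (−0.39 ± 0.68, SE), Emcn (−0.31 ± 0.51), Vwf (−0.26 ± 0.73), Gata5 (−0.14 ± 0.66) and Eng (−0.0710 ± 0.7). Each of these covariate differences was smaller than its SE, so that fit cannot decide their direction. The cause of the turned signs was not tested.

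Relative to Cdh5, 3 genes were called lower, and 2 to 4 without each library. With the 29 general genes as reference 1 was called higher, and Pecam1 and Cd34 turned to 0.18 and 0.11. Vwf turned to 0.29 with a pseudocount of 0.1. Pecam1 lay between −0.0425 and 0.0056 without single libraries and at 0.0272 without G799R libraries 3 and 4. Relative to Ehd3, 4 were called higher and 1 lower. Leaving out single libraries gave 4 to 5 and 0 to 1, and leaving out G799R libraries 3 and 4 gave 1 and 0.

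Same-numbered libraries correlated at −0.08 to 0.05, and differently numbered ones at −0.18 to 0.17. No pairing by number was seen, which does not exclude one. With the replicate block 8 and 0 were called as deposited, 0 and 3 relative to Cdh5, and 5 and 1 relative to Ehd3. FPKM gives no counts, so no counting error was set on low genes such as Vwf.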
